A study of Mus musculus with 4 samples.

Results

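The small leucine-rich proteoglycans are secreted matrix proteins built from leucine-rich repeats. Their curved repeat domain binds collagen fibrils and limits how fibrils grow and merge, and several members also bind growth factors of the TGF-beta family. The 10 genes described here, of 33456 in the deposited table, fall into 3 classes by protein sequence. Class I holds Dcn (decorin) and Bgn (biglycan), which carry chondroitin or dermatan sulphate chains, and Aspn (asporin), which carries none. Class II holds Fmod (fibromodulin), Lum (lumican), Kera (keratocan), Prelp and Omd (osteomodulin), most of which can carry keratan sulphate. Class III holds Epyc (epiphycan) and Ogn (osteoglycin). Decorin is the main small proteoglycan of tendon and dermis, fibromodulin and lumican shape tendon and skin collagen, keratocan is best known from the cornea, and epiphycan from growth cartilage. The rule that picks the genes is their name and family and uses no value, though they were picked for description with earlier results of these data known.

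Their levels were followed in 4 single-cell RNA-seq libraries of C57BL/6 mouse embryonic hindlimb, all without any treatment, at E11.5 (limb bud), E13.5 (cartilage condensation), E15.5 (joint cavitation) and E18.5 (joint morphogenesis). Each stage was 1 library, made from limb cells pooled over the pups of 1 litter after enzyme digestion, with dead cells removed once the frozen suspension had been thawed. A stage therefore has no replicate: differences between stages, and between cell classes within a library, are given with intervals that cover counting error only, and stage, litter and library preparation cannot be told apart. The hindlimb genes Pitx1 and Tbx4 were found at all stages (261 and 17 UMIs at their lowest, both at E18.5, 6769 and 242 at E11.5), and the forelimb gene Tbx5 gave 12 to 20 UMIs a library. After filtering, 2630, 2812, 2591 and 1896 cells remained in stage order, with median depths of 8926.5, 10263.5, 9934 and 6944.5 UMIs (unique molecular identifiers, that is, counted RNA molecules). Across the kept cells, 65 barcodes occurred in more than 1 library. The makeup of the libraries differed: summed markers of chondrocytes were 757, 19754, 23878 and 9246 UMIs per 1000000 (CPM) in stage order, those of fibroblasts 564, 822, 1333 and 6148 CPM, and those of pericytes and smooth muscle 116, 152, 230 and 1989 CPM. In levels of whole libraries, more cells of a type and more RNA per cell cannot be told apart.

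Cells were clustered without the 10 genes or the rest of their family, and clusters were named from marker lists that hold none of them. Names end in -like for that reason. Chondrocyte-like cells numbered 1087, 1155 and 278 at E13.5, E15.5 and E18.5, joint-like cells 380, 662 and 326 at E11.5, E13.5 and E15.5, and tendon-like cells 286 and 121 at E13.5 and E15.5. Connective tissue fibroblast-like cells numbered 22, 158 and 305 from E13.5 on. No cluster earned the name of dermal or fascial fibroblast over that of connective tissue fibroblast. The clusters nearest to them are called here the Crabp1 cluster, for a dermal papilla and skin fibroblast gene, and the Clec3b cluster, for a gene of fascia and other sheath fibroblasts. At E18.5 no tendon-like or joint-like group of 30 cells or more was found. Macrophage-like cells, which should lack these proteoglycans, set the level of free RNA: at E15.5 they held 77.2 CPM of Epyc (57.8 to 101, 95% Poisson interval), 29.1 of Lum, 14.6 of Prelp, 11.7 of Fmod and 10.2 of Dcn, against at most 25.8 CPM of any member at E18.5. Epyc at E15.5 also reached 313 CPM (269 to 363) in a lymphatic endothelial cluster led by Ccl21a and Lyve1, so low levels of Epyc outside cartilage are not read as expression.

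In the genome, 7 of the 10 genes lie in 2 runs of neighbours, in GRCm38 with GENCODE vM21 annotation. On chromosome 10, plus strand, stand Dcn (chr10:97479609-97518143), Lum (chr10:97565128-97572703), Kera (chr10:97606879-97613692) and Epyc (chr10:97644068-97682454), with no other protein-coding gene between them. On chromosome 13, plus strand, follow Aspn (chr13:49544443-49567565), Omd (chr13:49582462-49592822) and Ogn (chr13:49608046-49624501), next to the family member Ecm2. Prelp (chr1:133910304-133921414, minus strand) and Fmod (chr1:134037254-134048277, plus strand) are neighbours on chromosome 1, and Bgn (chrX:73483602-73495933, plus strand) stands alone. The gene Cenpp, with 856, 696, 659 and 274 UMIs in stage order, overlaps Aspn, Omd and Ogn on the opposite strand. The sources used here do not say whether reads were counted by strand. Without strand, reads of Cenpp and of these 3 genes cannot be told apart. Prelp and Epyc overlap the antisense transcripts Gm15851, with 0 to 8 UMIs a library, and Gm10754, with 0.

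The promoters of 4 members are shown because their genes behaved as 2 pairs in the data below: Epyc and Prelp, highest of all named classes in chondrocyte-like cells at E13.5, E15.5 and E18.5, and Aspn and Ogn, neighbours on chromosome 13 that were highest in tendon-like cells at E13.5 and E15.5. These classes depend on the clustering. At Leiden resolution 1.0 Aspn and Ogn were highest in connective tissue fibroblast-like cells at both stages, and Prelp in hypertrophic chondrocyte-like cells at E13.5. With each library clustered by itself Epyc and Prelp were highest in hypertrophic chondrocyte-like cells at E13.5, Aspn and Ogn in connective tissue fibroblast-like cells at E13.5, and Aspn in limb bud mesenchyme-like cells at E15.5. The sequences are the 250 bases before the RefSeq start site (GRCm38.p6), on the gene's strand, at chr10:97643818-97644067 (plus) for Epyc, chr1:133921402-133921651 (minus) for Prelp, chr13:49544193-49544442 (plus) for Aspn and chr13:49607765-49608014 (plus) for Ogn. Capitals mark the letters AACAAT on either strand (ATTGTT on the other strand), a motif that Sox factors, among them the cartilage regulator Sox9, can bind.
Epyc: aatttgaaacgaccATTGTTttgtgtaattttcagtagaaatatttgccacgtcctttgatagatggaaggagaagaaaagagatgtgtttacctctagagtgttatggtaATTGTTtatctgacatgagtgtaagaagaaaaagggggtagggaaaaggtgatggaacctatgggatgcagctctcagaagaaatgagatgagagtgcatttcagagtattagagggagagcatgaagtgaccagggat
Prelp: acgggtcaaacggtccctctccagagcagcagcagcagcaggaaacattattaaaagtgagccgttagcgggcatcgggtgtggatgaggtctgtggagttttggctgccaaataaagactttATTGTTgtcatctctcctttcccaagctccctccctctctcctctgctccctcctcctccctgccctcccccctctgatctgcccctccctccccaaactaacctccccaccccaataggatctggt
Aspn: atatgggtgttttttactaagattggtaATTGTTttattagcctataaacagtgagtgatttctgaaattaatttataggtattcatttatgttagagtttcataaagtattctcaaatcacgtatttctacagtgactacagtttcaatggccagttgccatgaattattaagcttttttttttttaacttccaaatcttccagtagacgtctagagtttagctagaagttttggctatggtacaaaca
Ogn: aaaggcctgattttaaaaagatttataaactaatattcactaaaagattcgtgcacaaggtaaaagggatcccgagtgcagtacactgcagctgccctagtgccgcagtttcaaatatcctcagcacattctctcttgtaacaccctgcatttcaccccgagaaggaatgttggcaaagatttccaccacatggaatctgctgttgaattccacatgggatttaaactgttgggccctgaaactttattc
Epyc has 2 matches, 236 and 139 bases before the start, Prelp has 1 at 127 and Aspn has 1 at 222. Ogn has none of them, nor of ACAAAG, the other Sox-type motif searched on both strands. Of 27025 promoters of this length, 9.65% held AACAAT, 16.5% ACAAAG and 24.2% either. Among the 8 members with a promoter in the table, Kera had 3 matches of either motif, and Bgn, Fmod and Omd had 0. A match is only a run of letters, and binding of Sox factors was not tested.

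Most of the family was far higher at E13.5 than at E11.5: 9 of the 10 genes were higher, by 2.03-fold to 2553-fold, and only Bgn was not. A gene counts as higher or lower here when its level, relative to the median gene, differed at least 2-fold with the whole 95% interval on 1 side of no difference and 20 or more UMIs in all. By that rule 29.1% of 15160 genes were called, 19.6% higher and 9.54% lower. Epyc went from 14 to 31933 UMIs (0.522 to 911 CPM, 2553-fold, 1522 to 4671), Prelp from 53 to 5205 UMIs (110-fold, 83.9 to 147), and Lum from 738 to 12219 (18.5-fold, 17.2 to 20). Ogn and Aspn, from 12 to 609 and from 6 to 301 UMIs, were 56.8-fold and 56.2-fold higher. Dcn was 13.5-fold (11.7 to 15.6), Fmod 11.3-fold and Omd 7.46-fold higher, Omd on only 40 UMIs. Kera, with 97 and 176 UMIs, passed only just at 2.03-fold (1.58 to 2.63), and on the plain CPM scale, where the median gene was 0.55 lower in log2 at E13.5, it did not pass. Bgn had been present already, at 153 and 128 CPM.

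**Figure D1:**
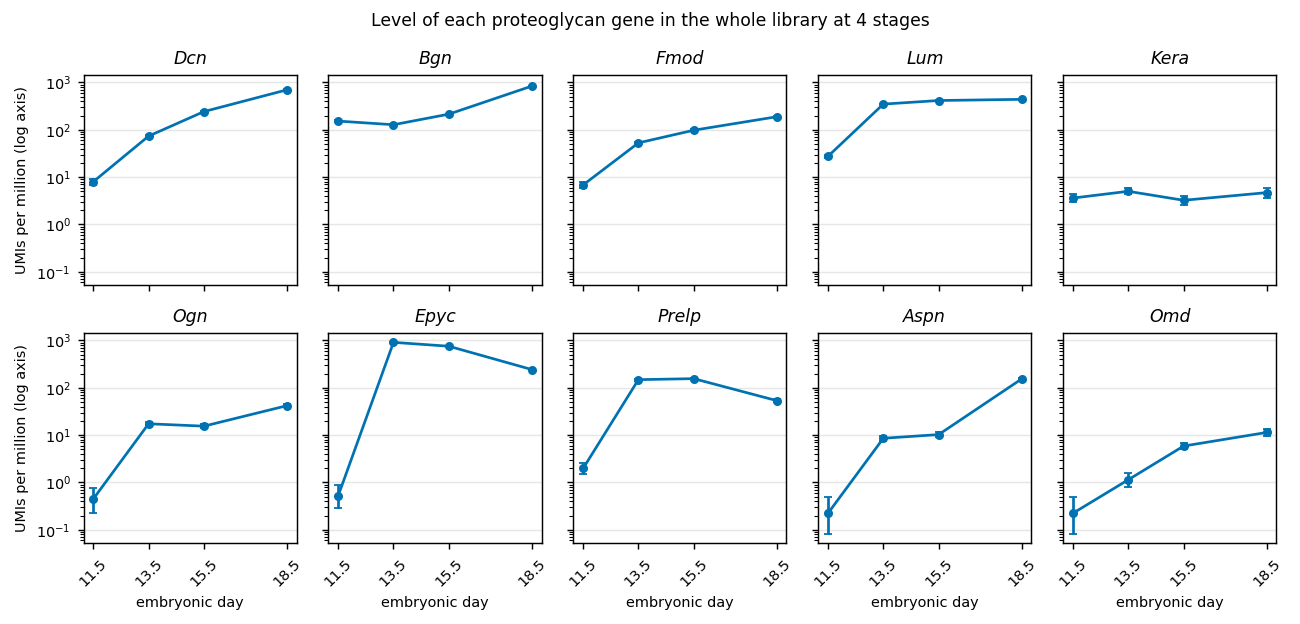
Level of each of the 10 genes in the whole library (CPM, log axis) at the 4 stages (x axis, embryonic day), with 95% Poisson intervals, which cover counting error only. Bgn starts high at 153 CPM, Epyc, Prelp and Lum are high from E13.5, and Dcn and Aspn reach 698 and 154 CPM at E18.5.

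From E13.5 to E15.5 little differed. Dcn was 3.37-fold higher (3.22 to 3.52; 73.4 and 242 CPM) and Omd 5.26-fold higher (3.71 to 7.62; 40 and 174 UMIs), and the other 8 stayed below 2-fold, beside 5.01% of genes called, 4.11% higher and 0.898% lower. From E15.5 to E18.5 the family split: 6 members were higher and 2 lower, beside 13.7% and 6.32% of genes. Aspn was 16.6-fold higher (14.7 to 18.7; 10.3 and 154 CPM), Bgn 4.33-fold (214 and 837 CPM), Dcn 3.18-fold (242 and 698 CPM) and Ogn 2.99-fold (15.5 and 41.9 CPM). Fmod at 2.13-fold and Omd at 2.14-fold passed only relative to the median gene, which gave 4 higher and 2 lower in plain CPM. Epyc was 2.81-fold lower (2.72 to 2.92; 754 and 242 CPM) and Prelp 2.63-fold lower (2.44 to 2.84; 156 and 53.5 CPM). Chondrocyte-like cells were 44.6% of the E15.5 library and 14.7% of the E18.5 library. Inside that class neither Epyc nor Prelp was called lower. Against E11.5, all 10 members were higher at E18.5, beside 38.3% of genes called (24.5% higher, 13.8% lower): Aspn 1067-fold (489 to 2909), Epyc 720-fold, Ogn 145-fold and Dcn 136-fold.

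The Kera value at E18.5 rests on 1 cell. Of its 69 UMIs, 54 (78.3%) came from a single joint-like cell, and the other 15 were spread over the remaining cells. Without that cell Kera stood at 1.02 CPM, its log2 ratio to E11.5 turned from 1.01 to -1.19, and 9 members were higher and 1 lower. Against E15.5 the log2 ratio then was -1.52. At the other stages Kera was found in 22, 32 and 32 cells, with up to 19.8% of its UMIs in 1 cell.

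At E11.5, the limb bud stage, the members present were found in different cell classes. Endothelium-like cells held 73.1% of Bgn UMIs (71.7 to 74.4) at 627 CPM, against 58.4 CPM in limb bud mesenchyme-like cells. Epithelium-like cells held 78.7% of Fmod UMIs at 39.5 CPM, and 59.9 CPM in a cluster led by Sost, Gjb2 and Epcam. Lum and Kera belonged to the mesenchyme, which held 82.7% and 99.0% of their UMIs. Within it 1 cluster of 302 cells led by Lix1, Igf1 and Tbx18 had 154 CPM of Lum (141 to 169), 27.9 of Dcn and 27.9 of Kera. Of the 53 Prelp UMIs, 28 lay in joint-like cells, at 11.1 CPM. At E11.5 these cells were a single cluster led by Sfrp2, Tbx18 and Osr2, without Gdf5 among its leading genes. In limb bud mesenchyme-like cells thinned to 3000 UMIs, 77.4% held no UMI of any member.

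Cartilage was marked throughout by Epyc and Prelp. Chondrocyte-like cells held 86.3%, 90.4% and 94.2% of all Epyc UMIs at E13.5, E15.5 and E18.5, at 1593, 1371 and 1686 CPM, and Prelp stood at 212, 259 and 294 CPM there. Lum, a class II member known from cornea and skin, was also a cartilage transcript at E13.5, with 519 CPM (509 to 530) in chondrocyte-like cells, then 431 and 657. Within the class, these 3 genes differed by 1.55-fold or less between successive stages. The other members did not keep level. From E13.5 to E15.5, 4 of 9 tested were higher (2.62% of 12749 genes called, 1.91% higher and 0.714% lower): Dcn 3.73-fold (24.7 and 92.5 CPM), Bgn 2.61-fold (73.7 and 193 CPM), Fmod 2.86-fold (56.3 and 162 CPM) and Omd 7.11-fold on 12 and 73 UMIs. Of those 12 Omd UMIs at E13.5, 7 came from 1 cell.

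From E15.5 to E18.5 the chondrocyte-like cells differed more: 6 of 9 tested members were higher and 0 lower (7.32% of 11910 genes higher, 3.19% lower). Bgn was 13.9-fold higher (13.2 to 14.5), at 193 and 2639 CPM. Dcn was 9.77-fold higher (9.1 to 10.5), at 92.5 and 889 CPM. Fmod was 7.84-fold higher (7.41 to 8.3), at 162 and 1250 CPM. Aspn and Ogn, nearly missing before with 13 and 45 UMIs, were 98.4-fold and 22.1-fold higher, at 85.6 and 66.5 CPM. Omd was 13.2-fold higher, at 4.96 and 64.5 CPM. At E18.5 only 7 cells were joint-like. All cells of that stage with 2 or more UMIs of the joint surface gene Prg4 were chondrocyte-like. With each library clustered by itself, a joint-like cluster led by Prg4 was highest for Bgn, Fmod and Omd at E18.5. The part of such cells in these chondrocyte-like values was not tested. Kera had 2, 5 and 2 UMIs in the class at the 3 stages, too few to test. With every cell thinned to 3000 UMIs (26 shallower cells of the class left out, all at E18.5), the share of chondrocyte-like cells with a Fmod UMI was 13.2%, 32.9% and 83.3%, and with a Bgn UMI 16.4%, 35.2% and 97.2% (without thinning, Fmod 37.8%, 58.6% and 87.8%, and Bgn 49.9%, 64.3% and 99.3%). In thinned macrophage-like cells the shares were 0%, 0% and 2.06% for Fmod (0 of 38 and 0 of 49 cells, with exact upper limits of 9.25% and 7.25%) and 2.63%, 0% and 13.4% for Bgn. Median depths were 15067, 11942 and 6335 UMIs in chondrocyte-like and 17438.5, 12022 and 6374 in macrophage-like cells. The share of thinned cells with Epyc was 80.6%, 72.6% and 54.4%. At E18.5 it was lower than at E15.5 while the level was higher, so no order is read from that step. At E18.5 the 10% of chondrocyte-like cells with most Epyc held 46.1% of its UMIs in the class, against 27.1% at E13.5 and 33.3% at E15.5. Thinned chondrocyte-like cells held UMIs of 2, 3 and 5 members in the median, and 9.20%, 27.1% and 77.0% of them held 4 or more.

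Most E18.5 chondrocyte-like cells, 198 of 278, lay in 1 cluster led by Ucma and 1500015O10Rik, with the heat shock genes Hspa1a and Hspa1b among its leading genes, and only 7 more of its cells came from another stage. Whether it is a cell state or a mark of that library cannot be told apart. Fibroblast markers moved with it: the summed list of 10 was 693 CPM in E15.5 chondrocyte-like cells and 3613 in those of E18.5, with 4798 in the Ucma cluster and Col1a1 at 1694 CPM, against 32806 in connective tissue fibroblast-like cells, while Dpt stood at 5.29 and 267 CPM in the Ucma cluster and the fibroblasts. Hspa1a and Hspa1b together stood at 33.8 and 2212 CPM in chondrocyte-like cells of the 2 stages, and at 24.8 and 915 in macrophage-like cells. The part of the heat shock genes in the result was not tested. The 2 clusters with at least 20 cells at both stages allow the comparison without the Ucma cluster. In the S100b and Matn1 cluster, 230 and 28 cells, Bgn was 300 and 1611 CPM in stage order, Dcn 102 and 649, and Fmod 222 and 530, while the fibroblast list stood at 1027 and 952 CPM. In the dividing cluster led by Susd5 and Matn3, 213 and 26 cells, Bgn was 261 and 1784 CPM, Dcn 116 and 695, and Fmod 123 and 530, with the fibroblast list at 756 and 1649 CPM. Hspa1a and Hspa1b together were 46.1 and 2379 CPM in the S100b and Matn1 cluster and 37.6 and 1517 in the dividing cluster. The Ucma cluster had 2394 CPM of them at E18.5, so this comparison is not free of the heat shock genes. With those 54 E18.5 cells alone, 3 of 7 tested members were higher and 0 lower, beside 6.02% of 10050 genes called (3.9% higher, 2.12% lower): Dcn 6.32-fold, Bgn 6.35-fold and Fmod 3.29-fold. Aspn (1 and 2 UMIs in these clusters, against 164 in the Ucma cluster) and Ogn (3 and 1 UMIs, against 126) were mostly in the Ucma cluster.

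**Figure D2:**
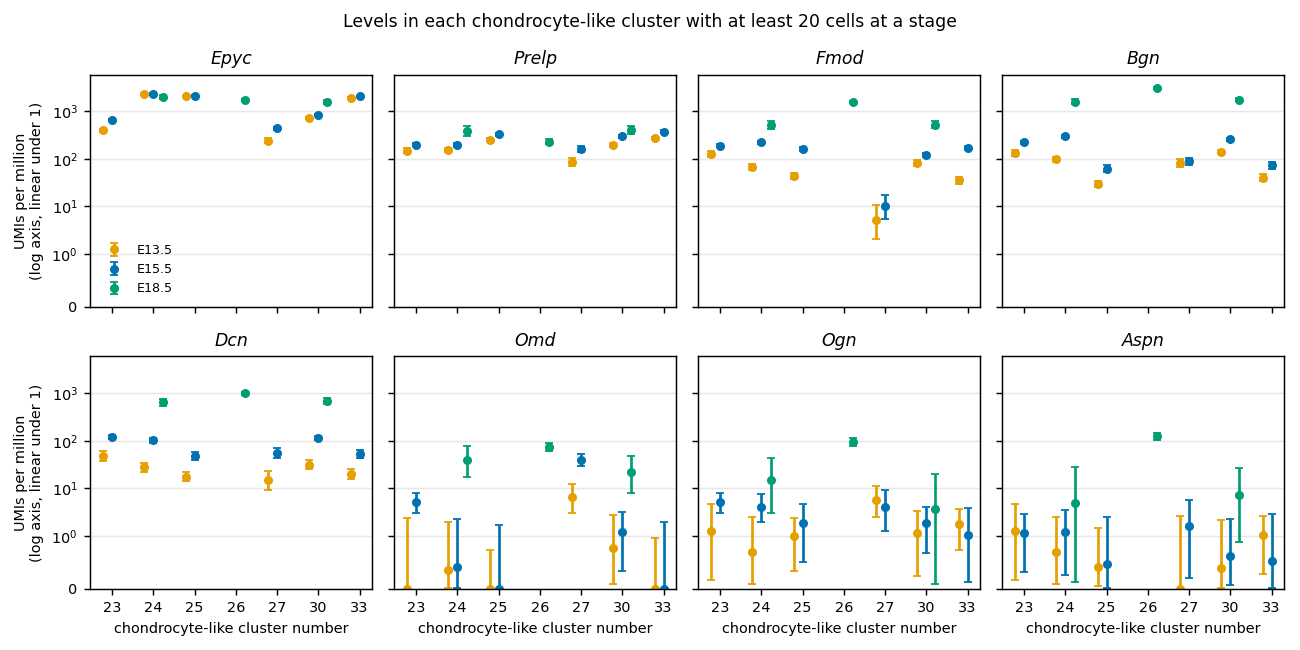
Levels of 8 members in the chondrocyte-like clusters (x axis, cluster number) by stage. The y axis is CPM, logarithmic above 1 and linear below, with 95% Poisson intervals for counting error and 1 point for each cluster with at least 20 cells at that stage. Cluster 26 is the Ucma cluster, 24 the S100b and Matn1 cluster and 30 the dividing cluster. Bgn, Dcn and Fmod of every E18.5 cluster lie above all E15.5 clusters (Bgn 1611 to 3191 against 62.6 to 300 CPM), while the Epyc ranges of the stages overlap.

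Hypertrophic chondrocytes, which enlarge before cartilage mineralises, held less of the cartilage set. At E15.5 hypertrophic chondrocyte-like cells (114 cells, with Col10a1-type markers) had 3 members lower than chondrocyte-like cells and 1 higher, beside 22.9% of genes called (10.6% lower, 12.3% higher). Fmod was 17.7-fold lower (8.83 against 162 CPM), Epyc 8.52-fold (155 against 1371) and Prelp 4.17-fold (60.1 against 259), and Omd, known from mineralising matrix, 2.09-fold higher on 17 UMIs. Bgn, at 242 against 193 CPM, was not called. An unnamed cluster led by Smpd3, Panx3 and Ihh, genes of prehypertrophic cartilage, kept Epyc at 1209 and 1315 CPM and Prelp at 381 and 442 at E13.5 and E15.5, with Fmod at 16.5 and 32.7 and Bgn at 13.2 and 21.1. A chondrocyte-like cluster led by Uts2b and Ihh had most of the class's Omd at E15.5, 50 of 73 UMIs, at 39.6 CPM (29.4 to 52.2), with Fmod at only 10.3 CPM. Fmod was thus low in each of these 3 groups.

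Joint-like cells, named from Gdf5, Erg, Osr2 and other interzone genes, differed from cartilage in most tested members. Among their clusters was one led by Hist1h2ag and Foxp2, with 221 and 131 cells at E13.5 and E15.5. Its mean marker log2 ratio was 0.84 for the tendon list (0 markers past the naming rule) and 0.56 for the joint list (3 markers). The E13.5 cells with most Kera and most Aspn UMIs lay in it. At E13.5, 4 of 9 tested members were higher than in chondrocyte-like cells and 3 lower, beside 25% of genes called (14.2% higher, 10.8% lower). Bgn was 3.23-fold higher (307 against 73.7 CPM), Ogn 15-fold (30.2 against 1.56), Aspn 13.1-fold (51 and 11 UMIs) and Kera 72.2-fold on 51 and 2 UMIs (19 to 613). Of those 51 Kera UMIs 30 came from 1 cell, and without it, an alternative chosen after seeing the data, the ratio was 29.9-fold (7.3 to 263). Epyc was 40.5-fold lower, Lum 13-fold (51.3 against 519 CPM) and Prelp 8.41-fold. Fmod did not differ by the rule, at 82.0 against 56.3 CPM. At E15.5, 4 were higher and 4 lower, beside 20.4% of genes called (10.9% higher, 9.55% lower). Aspn was 42.4-fold, Ogn 17.1-fold, Omd 4.75-fold and Bgn 2.15-fold higher, and Fmod 2.78-fold, Lum 3.23-fold, Epyc 54.1-fold and Prelp 10.1-fold lower. Of the joint-like Omd UMIs at E15.5, 19 lay in 1 cell.

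Within joint-like cells 5 members were higher at E15.5 than at E13.5 and 1 was lower, beside 1.12% and 1.02% of 11058 genes. Dcn was 5-fold higher (25.6 and 126 CPM), Lum 3.36-fold, Aspn 4.48-fold, Ogn 2.24-fold and Omd 20.5-fold on 7 and 66 UMIs. Kera was lower, with 51 UMIs and then 1, and without the cell that held 30 of the 51 it was 9.69-fold lower on 21 and 1 UMIs (1.56 to 401). The Gdf5 cluster, the most interzone-like, held 47 of the 66 Omd UMIs at E15.5, 19 of them in 1 cell. Its Omd was 1.38 CPM at E13.5 and 81.3 (59.7 to 108) at E15.5. Its Ogn was 19.2 and 95.2 CPM and its Bgn 380 and 613, while Fmod stood at 180 and 163 CPM. Aspn in the Dkk2 cluster was 6.05 CPM at E13.5, below the 10.8 of all joint-like cells. At E15.5 it was 98 CPM there, above the 47.7 of the class. Most of those 47 Omd UMIs lay in cells with little Gdf5, since the 89 cells of the library with 2 or more Gdf5 UMIs held 2 Omd UMIs in all. At E18.5 the 14 cells with 2 or more UMIs of Prg4, the lubricin gene of the joint surface, were all chondrocyte-like. They held 4127 CPM of Bgn (3774 to 4504), 2845 of Fmod, 386 of Prelp and 140 of Lum, and 0 UMIs of Epyc (upper limit 30.3 CPM). The 14 cells with 2 or more Gdf5 UMIs, also chondrocyte-like, held 3437 CPM of Bgn and 2919 of Epyc.

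**Figure D3:**
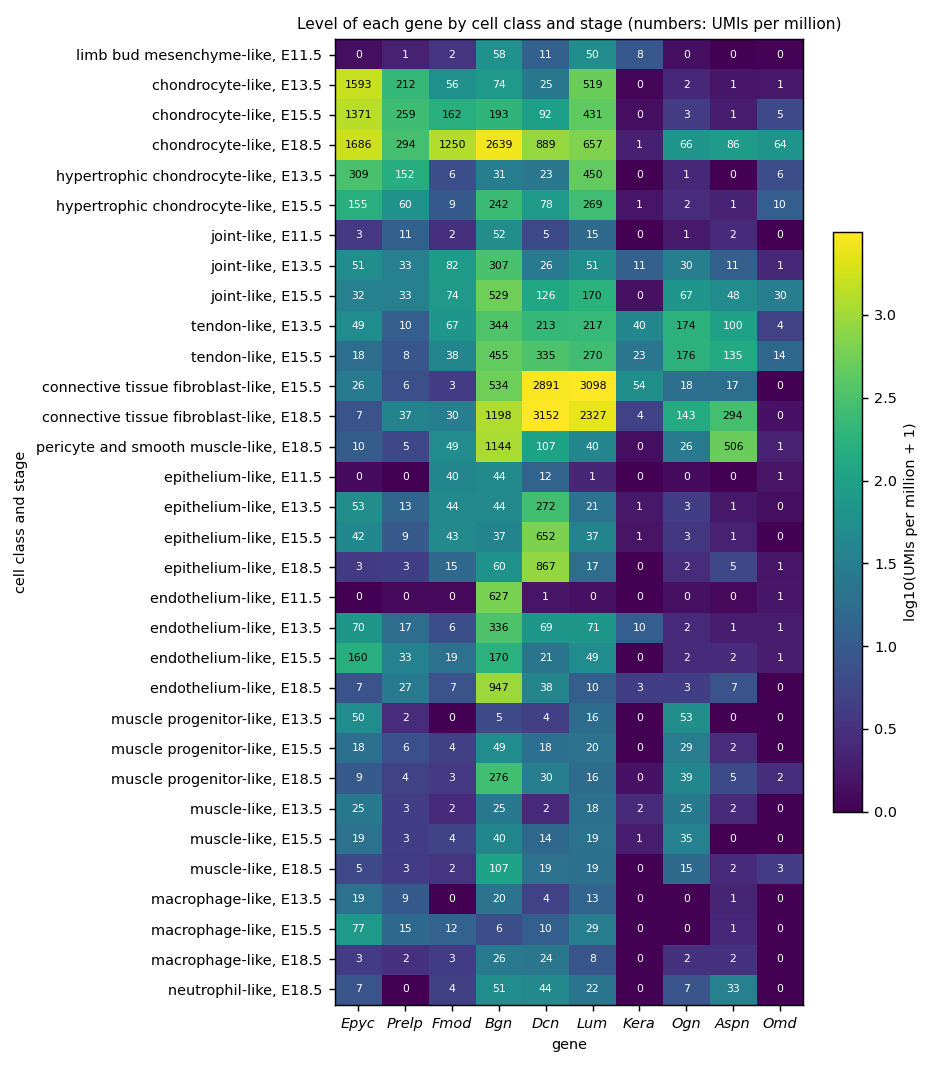
Level of each member in each cell class and stage with 30 cells or more (colour, log10 of the CPM value plus 1, with the rounded CPM value printed in each field). Among these named classes Epyc and Prelp are highest in the chondrocyte-like class from E13.5 on (Epyc 1593, 1371 and 1686 CPM) and in joint-like cells at E11.5 (2.77 and 11.1 CPM), while Ogn and Aspn are highest in tendon-like cells at E13.5 and E15.5. The E11.5 joint-like cells are a single cluster led by Sfrp2, Tbx18 and Osr2.

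Tendon-like cells were a single cluster led by Chodl, Kctd12 and Ebf2, with Scx also among its leading genes. Its mean marker log2 ratio was 1.54 for the tendon list (3 markers) and 1.10 for connective tissue fibroblasts (5 markers). At Leiden resolution 3.0 a cluster led by Chodl and Ebf2 had no name, and at 1.0 one led by Dkk2 and Chodl was connective tissue fibroblast-like. Among the classes, tendon-like cells held the highest Ogn and Aspn at E13.5 and E15.5, and more Dcn than joint-like cells. At E13.5 they exceeded joint-like cells in 5 of 9 tested members and were below in 1, beside 4.47% and 6.01% of genes: Aspn 10-fold (100 against 10.8 CPM), Dcn 8.95-fold (213 against 25.6), Ogn 6.19-fold (174 against 30.2), Lum 4.54-fold (217 against 51.3) and Kera 4.01-fold higher (81 and 51 UMIs, or 9.69-fold on 81 and 21 UMIs without that 1 joint-like cell), and Prelp 3.05-fold lower (10.5% of genes were called in all). At E15.5, 3 were higher (Aspn 3.18-fold, Dcn 2.99-fold, Ogn 2.98-fold) and Prelp lower, beside 4.3% and 6.25% of genes. Between the stages, tendon-like cells differed only in Epyc, 2.66-fold lower at 49.2 and 17.6 CPM, where macrophage-like cells had 19.1 and 77.2 CPM (1.36% of genes higher, 1.35% lower). At E13.5 most Kera lay in cells with the tendon gene Tnmd. There the 32 cells with 2 or more Tnmd UMIs, of which 23 were tendon-like, held 120 of the 176 Kera UMIs, at 330 CPM (274 to 395), and 37.5% of them had a Kera UMI, with 30 of the 120 in 1 joint-like cell. The 2741 cells without Tnmd had 1.26 CPM. The same 32 cells held 209 CPM of Fmod (165 to 262), against 67.1 in all tendon-like cells. This was not so later. At E15.5, 24 such cells had 46.6 CPM of Kera (13 UMIs), 24 cells with 1 Tnmd UMI had 86.3 CPM (26 UMIs, 19 of them in 1 connective tissue fibroblast-like cell), and 57 of the 96 Kera UMIs lay in cells without Tnmd. At E18.5, 43 cells had 1 UMI, but 35 of those 43 were pericyte and smooth muscle-like.

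Among the named classes, connective tissue fibroblast-like cells had the highest levels of Dcn and Lum at E15.5 and E18.5. By number of UMIs, chondrocyte-like cells held more Lum at E15.5, 6350 of 12284 against 3971. Fibroblast-like cells of that stage had 2891 CPM of Dcn and 3098 of Lum, and tendon-like cells of the same library 335 and 270. In that comparison, tendon-like against fibroblast-like, 3 members were higher (Fmod 12.2-fold, Ogn 9.89-fold, Aspn 7.9-fold) and 3 lower (Lum 11.4-fold, Dcn 8.57-fold, Kera 2.36-fold), beside 6.42% and 7.07% of genes. From E15.5 to E18.5 the fibroblast-like class kept Dcn (2891 and 3152 CPM) and Lum (3098 and 2327), while 5 members were higher and 2 lower, beside 9.42% and 4.76% of genes. Aspn was 19.5-fold higher (17.2 and 294 CPM), Fmod 10.9-fold (3.12 and 29.9), Ogn 9.07-fold (17.9 and 143), Prelp 6.7-fold (6.24 and 36.8) and Bgn 2.55-fold (534 and 1198). Kera, highest in this class at E15.5, was 12.1-fold lower, with 69 and 8 UMIs. Epyc was 3.3-fold lower, at 25.7 and 6.86 CPM, a level at or below that of macrophage-like cells at E15.5.

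The class's cells were not the same at both stages: the Crabp1 cluster had 150 and 187 cells in stage order, and the Clec3b cluster, also led by Mfap5 and Postn, 8 and 118. At E18.5 the Clec3b cluster exceeded the Crabp1 cluster in 4 of 7 tested members and was below in 1, beside 8.28% and 7.79% of genes. Ogn was 12.7-fold higher (281 against 22.9 CPM), Aspn 11.2-fold (571 against 53.2), Fmod 9.21-fold (56.9 against 6.42) and Prelp 6.27-fold (63 and 12 UMIs). Lum was 4.12-fold lower (846 against 3616 CPM), and Dcn, at 2862 and 3404 CPM, did not differ by the rule. Within the Crabp1 cluster alone, Aspn (4.91-fold) and Ogn (2.64-fold on 12 and 25 UMIs) were higher at E18.5 than at E15.5, and Kera (16.6-fold on 42 and 2 UMIs, 4.31 to 141) and Epyc lower, beside 8.15% and 5.15% of genes. Dcn (2881 and 3404 CPM), Lum (3213 and 3616) and Bgn (554 and 962) stayed under 2-fold there. The makeup of this cluster may also differ between the stages. At Leiden resolution 3.0 a cluster led by Crabp1 had 149 and 54 cells in stage order. Another, led by Col1a1, Col3a1 and Itih5 without Crabp1 among its leading genes, had 1 and 130.

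Set against cartilage, the fibroblast classes (tendon-like and connective tissue fibroblast-like together, 308, 279 and 308 cells, of which 286, 121 and 3 were tendon-like) were higher in some members and lower in others at each stage. At E13.5, 6 members were higher than in chondrocyte-like cells and 2 lower, beside 27.3% of genes called (15.1% higher, 12.2% lower). Kera was 329-fold higher on 98 and 2 UMIs (88.7 to 2756), Aspn 126-fold, Ogn 89.1-fold, Dcn 16-fold, Bgn 4.27-fold and Omd 4.48-fold on 8 and 12 UMIs (7 of the 12 in 1 cell), and Epyc 37.6-fold and Prelp 26-fold lower. At E15.5, 6 were higher and 3 lower, beside 12.9% and 11.1%: Kera 112-fold, Aspn 64-fold, Ogn 23.4-fold, Dcn 18.8-fold, Lum 4.25-fold (log2 2.09, but -0.74 when clusters were made from all deposited barcodes, unfiltered) and Bgn 2.37-fold higher, and Epyc 66.6-fold, Prelp 42.2-fold and Fmod 10.9-fold lower. At E18.5, of 9 tested, 4 were higher and 5 lower, beside 12.5% and 12.0% of genes: Dcn and Lum 3.56-fold each, Aspn 3.51-fold and Ogn 2.2-fold higher, and Epyc 245-fold, Fmod 41.7-fold, Omd 26.2-fold, Prelp 7.97-fold and Bgn 2.18-fold lower. Bgn stood at 365 against 73.7 CPM at E13.5, 504 against 193 at E15.5 and 1200 against 2639 at E18.5. The group turns from mostly tendon-like to nearly all connective tissue fibroblast-like over these stages, and Bgn in tendon-like cells alone was 344 and 455 CPM at E13.5 and E15.5. Without the Ucma cluster its E18.5 log2 ratio was -0.33, no longer past 2-fold. Omd did not keep a direction, with 5.30 against 4.96 CPM at E15.5 and 2.44 against 64.5 at E18.5.

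**Figure D4:**
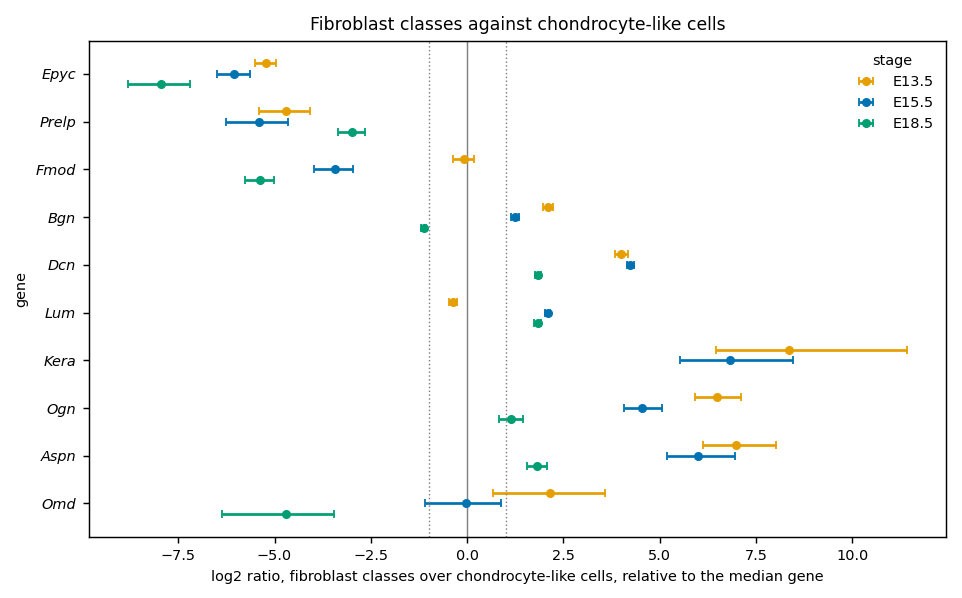
Log2 ratio of each member's level, fibroblast classes over chondrocyte-like cells, relative to the median gene, at E13.5, E15.5 and E18.5, with 95% intervals for counting error (dotted lines, 2-fold; Kera at E18.5 is left out for too few UMIs). Epyc and Prelp lie below 0 at all 3 stages and Dcn, Ogn and Aspn above, while Bgn lies above 0 at E13.5 and below it at E18.5 (4.27-fold higher at E13.5, 2.18-fold lower at E18.5).

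Aspn, Bgn and Ogn also had sites outside cartilage and fibroblasts. At E18.5 pericyte and smooth muscle-like cells (339 cells) held 62.5% of Aspn UMIs (60.5 to 64.5), at 506 CPM (480 to 534), above the 294 CPM of connective tissue fibroblast-like cells. Both of their clusters had it, the Rgs5 cluster at 518 and the Actg2 and Acta2 cluster at 465 CPM, and the latter also had 330 CPM of Dcn and 155 of Fmod. Those cells also held 35 of the 43 cells with 2 or more Tnmd UMIs, so the class is not free of tendon markers. Bgn stood at 1144 CPM there. In endothelium-like cells Bgn was 627, 336, 170 and 947 CPM in stage order, and 6.03-fold higher at E18.5 than at E15.5 (5.02 to 7.26; 10.3% of genes higher, 6.99% lower). The class lay in different clusters: 386 of its 394 cells at E11.5 in 1 led by Plvap and Emcn, 102 of 110 and 70 of 112 at E13.5 and E15.5 in 1 led by Gpihbp1, and at E18.5 26 of 47 in the lymphatic cluster and 16 in 1 led by Fbln5 and Gkn3. The lymphatic cluster had 43.0 CPM of Bgn at E15.5 and the Gpihbp1 cluster 276. Ogn was found in muscle progenitor-like cells at 53.4, 29.5 and 38.8 CPM from E13.5 on, where macrophage-like cells had 0, 0 and 2.15. Bgn in muscle progenitor-like cells was 6.33-fold higher at E18.5 than at E15.5 (49.1 and 276 CPM; 8.17% of genes higher, 4.81% lower). Bgn was thus higher at E18.5 than at E15.5 in chondrocyte-like, connective tissue fibroblast-like, endothelium-like and muscle progenitor-like cells. Within the Crabp1 cluster alone it stayed under 2-fold, and the endothelium-like cells lay in different clusters at these stages. The share of thinned macrophage-like cells with a Bgn UMI was also higher at E18.5.

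Ordered by level among classes of 30 cells or more, the 95% intervals of the 2 highest classes overlapped in 10 of 40 combinations of member and stage, 4 of them at E11.5, and not in the other 30. At E13.5 Dcn was highest in epithelium-like cells (272 CPM, 253 to 291) before tendon-like cells (213, 194 to 234). The 22 connective tissue fibroblast-like cells of that stage were too few to be ranked, and at Leiden resolution 1.0 that class was highest for Dcn. Bgn in tendon-like (344, 319 to 371) and endothelium-like cells (336, 304 to 371), and Fmod in joint-like (82.0, 74.0 to 90.6) and tendon-like cells (67.1, 56.3 to 79.4), could not be ordered. At E15.5 the leading classes of Bgn, connective tissue fibroblast-like (534, 494 to 575) and joint-like (529, 499 to 560), could not be ordered either, nor Omd in joint-like (66 UMIs) and tendon-like cells (11 UMIs). Ogn then was 176 CPM in tendon-like and 66.8 in joint-like cells, and Fmod 162 in chondrocyte-like and 74.0 in joint-like cells. At E18.5 Bgn led in chondrocyte-like cells (2639 CPM) before connective tissue fibroblast-like (1198) and pericyte and smooth muscle-like cells (1144), whose intervals overlap. Ogn was 143 CPM in connective tissue fibroblast-like cells and 66.5 in chondrocyte-like cells, and Omd 64.5 in chondrocyte-like cells and at most 3.23 in any other named class. The E18.5 order depends on the clustering: with each library clustered by itself, a joint-like cluster of 53 cells led by Prg4 and Col8a2 appeared and was highest for Bgn, Fmod, Kera and Omd, and a fascial fibroblast-like cluster of 69 cells for Ogn.

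Dcn, a connective tissue proteoglycan, was also high in epithelium-like cells, where Lum was low. Epithelium-like cells had 12.1, 272, 652 and 867 CPM of Dcn in stage order, 33.7-fold higher at E13.5 than at E11.5 (24.9 to 46.8; 13.4% of genes higher, 6.31% lower), 2.64-fold higher at E15.5 than at E13.5 (3.86% of genes called, 2.15% higher, 1.7% lower), and 1.37, 20.5, 36.8 and 16.9 CPM of Lum. This class too lay in different clusters by stage. At E11.5, 124 and 238 of 364 cells were in clusters led by Krt8 and by Sost, 223 of 242 and 128 of 165 at E13.5 and E15.5 in 1 led by Cxcl14 and Gjb6, and 231 of 233 at E18.5 in 1 led by Lgals7 and Krt17. Inside the Cxcl14 cluster Dcn was 300 and 783 CPM at E13.5 and E15.5, and inside the Lgals7 cluster 140 and 819 at E15.5 and E18.5. Dcn made up 89.8%, 93.0%, 94.6% and 98.1% of the UMIs of both genes there (98.1%: 97.3 to 98.7). In chondrocyte-like cells the share was 4.54%, 17.7% and 57.5% from E13.5 on. In connective tissue fibroblast-like cells it made up 48.3% and 57.5% at E15.5 and E18.5, and in tendon-like cells 49.5% and 55.4% at E13.5 and E15.5. Macrophage-like cells, at 3.81, 10.2 and 23.7 CPM of Dcn, were far lower. Epithelium-like cells without any Lum UMI still held 264, 588 and 889 CPM of Dcn from E13.5 on, and at E15.5 77.1% of those 118 cells had a Dcn UMI. Of the epithelium-like cells with a Dcn UMI, 98.8%, 98.4% and 98.7% also had the basal keratin Krt14 at E13.5, E15.5 and E18.5. Fibroblast genes were not uniform across these cells: Pdgfra was in 3.03%, 0.813% and 0% of them, but Col3a1 in 47.3%, 55.3% and 60.1%, against 36.4%, 33.3% and 40.0% of epithelium-like cells without a Dcn UMI. At E18.5 Col3a1 was 189 against 81.5 CPM, Col1a1 121 against 66.3 and Lum 20.1 against 9.47 in cells with and without Dcn, whereas at E13.5 Col1a1 was 18.9 against 63.0 CPM. The part of fibroblast RNA in the epithelial Dcn was not tested. The summed fibroblast list in epithelium-like cells was 133, 328, 393 and 704 CPM in stage order. Fmod in this class was 39.5, 43.7 and 43.3 CPM to E15.5 and was 14.5 CPM at E18.5, 2.66-fold lower (1.68 to 4.36; 10.8% of genes higher, 6.22% lower). Inside single clusters it was 48.5 and 52.0 CPM in the Cxcl14 cluster at E13.5 and E15.5, and 9.35 (3 UMIs, 1.93 to 27.3) and 14.6 CPM in the Lgals7 cluster at E15.5 and E18.5, the only one with 30 cells at both of the later stages.

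**Figure D5:**
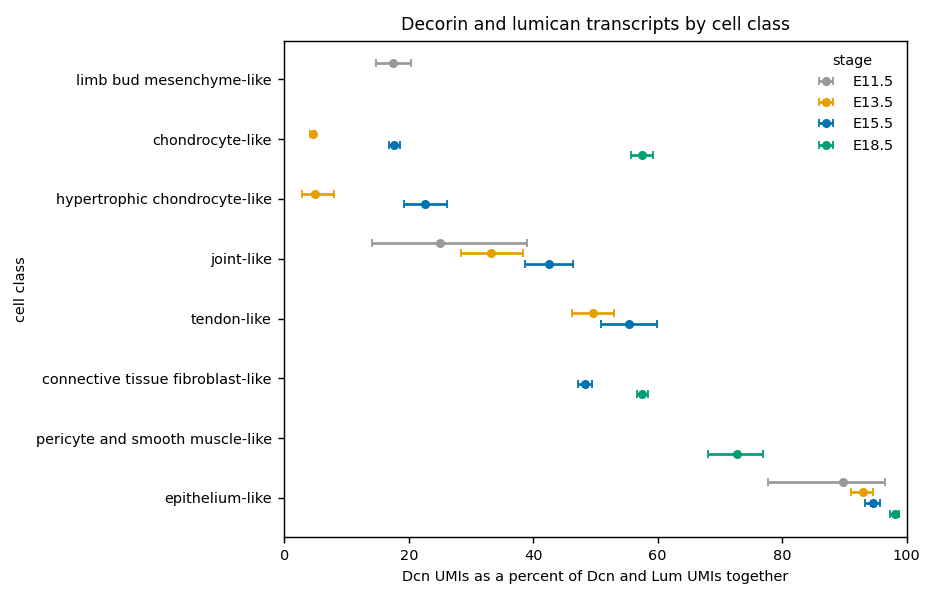
Dcn share of all Dcn and Lum UMIs (percent, 95% exact binomial interval for counting error) by cell class and stage. Epithelium-like cells lie at 89.8% to 98.1%, chondrocyte-like cells at 4.54%, 17.7% and 57.5% in stage order, and the fibroblast and tendon classes between 48.3% and 57.5%.

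Genes of the surrounding pathway were counted from lists of other family members, collagens, glycosaminoglycan synthesis, TGF-beta signalling and proteases. From E11.5 to E13.5, where 19.6% of all genes were higher and 9.54% lower, 12 of 14 tested fibrillar and fibril-associated collagens were higher and 0 lower (median log2 ratio 2.96, against 3.98 for the small proteoglycans), with the cartilage collagens Col11a2, Col11a1 and Col2a1 leading. Of 20 tested genes for chondroitin and dermatan sulphate chains, 10 were higher and 0 lower, among them the sulphotransferase Chst11 (193 and 3178 UMIs), Csgalnact1 and Xylt1, which starts the chain. Of 9 genes for keratan sulphate chains 1 was higher (St3gal1) and 1 lower (Chst2). Of 7 other family members 5 were higher and 0 lower, with Chad (10 and 4179 UMIs) and Chadl leading. Proteases that cut small proteoglycans gave 2 higher and 2 lower of 9, and TGF-beta genes 1 each of 6 (Tgfb3 and Tgfb1), counts from which nothing is read beside those shares.

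Between E15.5 and E18.5, beside 13.7% of genes higher and 6.32% lower, the collagens gave 11 higher and 3 lower of 15 (Col3a1 349 and 2189 CPM, Col1a1 356 and 1991 CPM), the chondroitin and dermatan sulphate genes 1 higher and 5 lower of 20 (Chst11 95.7 and 26.5 CPM, lower), and the keratan sulphate genes 0 higher and 2 lower of 9. Within chondrocyte-like cells over the same interval (7.32% of genes higher, 3.19% lower), none of the 19 tested chondroitin and dermatan sulphate genes was called (0 higher, 0 lower), while 9 of 14 collagens were higher and 0 lower, Col14a1 and Col1a1 most, beside the 6 small proteoglycans. Ecm2, the neighbour of Aspn on chromosome 13, was also higher there, at 0.951 and 38.8 CPM. In fibroblast classes against chondrocyte-like cells at E18.5 (12.5% of genes higher, 12.0% lower), 7 of 8 tested proteases were higher and 0 lower (Adamts4, Adamts5 and Adamts1 most), and chondroitin and dermatan sulphate genes were 1 higher and 7 lower of 17, with Chst11 at 1.95 against 140 CPM. TGF-beta genes gave 2 higher and 0 lower of 6 there, the receptors Tgfbr2 and Tgfbr3.

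Over 32 combinations of class and stage, the genes whose log2 levels ran most like each member's were, by Pearson correlation, Matn1 (0.96), Lect1 (0.94) and 3110079O15Rik (0.94) for Epyc, and S100b, Fbln7 and Susd5 (0.95 each) for Prelp. For Aspn they were Thbs2 (0.94), Ntrk2 (0.88) and Rarres2 (0.87), for Ogn Loxl1 (0.88), Agtr2 (0.86) and Chrd (0.86), and for Lum B3gnt9 (0.91), Col16a1 (0.89) and Gm22 (0.88). Dcn came nearest to Col14a1 (0.87), Kera to Crabp1 (0.83), Bgn to Nid1 (0.83), and both Fmod (0.84) and Omd (0.86) to 1500015O10Rik, a leading gene of the Ucma cluster. Among the members themselves Epyc and Prelp ran most alike (0.89), then Ogn and Aspn (0.71), Fmod and Omd (0.69) and Dcn and Lum (0.67), and Kera and Prelp least (-0.10). Pairs on the same chromosome had a median of 0.47 (10 pairs) and other pairs 0.44 (35 pairs). These combinations share 4 libraries and their depth, and some of these genes also helped to name the classes.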

How the data were processed

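The deposited files hold raw UMI counts per gene and cell barcode. The authors made these counts with Cell Ranger on mm10 and used Seurat 2.3.4, per the submitters' processing notes. The sources used here do not state the version of Cell Ranger or its strand setting. Of 10272 barcodes in 4 libraries, 9929 were kept, with at least 200 genes, at most 10% mitochondrial UMIs and no Scrublet call. Scrublet called 0.312% of barcodes, too few to trust, so doublets are treated as still present. Members and lists were chosen with earlier results of these data known.

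Cells were normalised per 10000 UMIs, and 2000 variable genes (without the 10 members and the rest of the family), 30 components, 15 neighbours and Leiden resolution 2.0 gave the clusters (scanpy 1.11.5, igraph 0.11.9, Python 3.11.15). A cluster was named from 20 marker lists if at least 3 markers of a list stood in 20% of its cells and were 2-fold up. UMIs were summed over the cells of a class and stage and divided by the summed UMIs without globin genes (CPM, per 1000000). Intervals are 95% (Poisson for levels, exact conditional binomial for ratios, Clopper-Pearson for shares, scipy 1.17.1) and cover counting error only. With 1 library a stage no test was made; the 2-fold rule with 20 UMIs is stated in the text. Of the 33456 gene IDs, 32655 were in GENCODE vM21. The genes named are all 10 members, up to 3 called members of each other list with the largest ratio, and the 3 genes most correlated with each member (log2(CPM + 10), 12289 genes with 200 or more UMIs). Groups by UMIs of Tnmd, Gdf5 or Prg4 and single clusters are descriptions. Counts come from 3' ends, so levels of different genes were not ranked, and the share of Dcn among Dcn and Lum UMIs is compared only between classes and stages. The script was tested on simulated data.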

Additional observations from a re-analysis of the deposited data

Results flagged for a closer look

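Fmod differed in direction between cell classes over the same interval, E15.5 to E18.5: its log2 ratio relative to the median gene was 2.97 in chondrocyte-like cells and 3.45 in connective tissue fibroblast-like cells, but -1.41 in epithelium-like cells. There is 1 library a stage, so the difference between the classes was not tested. The fibroblast value rests on 4 and 61 UMIs and the epithelial value on 81 and 25 UMIs. The clusters behind these classes changed between the stages. Epithelium-like cells were mostly in the Cxcl14 cluster at E15.5 (128 of 165) and in the Lgals7 cluster at E18.5 (231 of 233), which had 9.35 and 14.6 CPM of Fmod at E15.5 and E18.5. The Clec3b cluster had 8 and 118 fibroblast-like cells at the 2 stages, with 56.9 CPM of Fmod at E18.5 against 6.42 in the Crabp1 cluster.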

How the results depend on the processing

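Of the counts of members past the rule, 213 of 219 alternatives stayed within 1.5 times of the value given. With a 3-fold limit, 3 members were higher (Dcn, Bgn and Aspn) and 0 lower at E18.5 against E15.5, and 2 were higher (Dcn and Omd) within chondrocyte-like cells at E15.5 against E13.5. With only the 2 chondrocyte-like clusters found at both stages, 3 were higher at E18.5 against E15.5, and without the E18.5 cell with most Kera UMIs, 1 (Kera) was lower at E18.5 against E11.5; both alternatives were chosen after seeing the data. With each library clustered by itself, 15 of the 30 highest classes by member and stage were the same, and with Leiden resolution 1.0, 21. Direction turned for Lum in fibroblast classes against chondrocyte-like cells at E15.5 with all deposited barcodes (-0.74) and for Kera at E18.5 against E11.5 without that cell (-1.19); the cause was not tested. Of the single-gene ratios, 928 stayed the same: those called stayed called in the same direction, and those not called stayed so, inside their first interval. Another 35 fell under the limit, 16 passed it and 49 moved out of that interval without being called. Bgn in fibroblast classes against chondrocyte-like cells at E18.5 fell under 2-fold with stricter filters (-0.97), each library clustered by itself (-0.95), classes by the highest marker score (-0.77) and without the Ucma cluster (-0.33). With each library clustered by itself, 2 comparisons could not be run, because a class had under 30 cells. No paired analysis was possible because each stage is 1 library. Depth limits Kera, Omd and the early Aspn and Ogn most.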
